A study of Mus musculus with 8 samples.

Results

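AMPA and kainate receptors are cation channels opened by glutamate, and the expression of 10 subunit genes was followed in C low-threshold mechanoreceptors (C-LTMRs) of the mouse. The genes were taken by name: the AMPA subunit genes Gria1 to Gria4, the kainate subunit genes Grik1 to Grik5, and Grin1, which encodes the obligatory subunit of NMDA receptors and is therefore neither AMPA nor kainate. All 10 were among the 55573 genes of the count table and all 10 were among the 22013 genes with enough counts to be tested. C-LTMRs are unmyelinated afferents of the dorsal root ganglia that respond to light touch. They had been sorted by flow cytometry as GFP+ cells from adult mice that were either wild type (WT) or lacked Bhlha9 (knockout, KO). Bhlha9 encodes a transcription factor of the basic helix-loop-helix family. The title of the study concerns choice of temperature, formalin pain and differences between the sexes. There were 4 groups of 2 libraries: male WT, male KO, female WT and female KO, which the submitters describe as biological replicates. The sources used here give neither the allele that drives GFP, nor the structure of the KO allele, nor the number of animals behind a library.

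Each receptor is an assembly of 4 subunits. Among AMPA subunits Gria2 (GluA2) sets calcium permeability, because its edited form lets little calcium through. Among kainate subunits Grik1 to Grik3 (GluK1 to GluK3) can form channels alone, whereas Grik4 and Grik5 (GluK4 and GluK5) bind glutamate with high affinity and need a partner from the first set to reach the surface. GluK1 is known as a kainate receptor subunit of small-diameter sensory neurons, where presynaptic kainate receptors on central terminals modulate glutamate release. NMDA receptors pair GluN1, the product of Grin1, with GluN2 or GluN3 subunits.

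The codon that RNA editing can change is shown for the AMPA and kainate members, because the part that Gria2 plays in a receptor rests on it. The stretches were chosen after the values were seen. In the pore loop the adenosine of this codon can be deaminated in transcripts of Gria2, Grik1 and Grik2, which changes glutamine to arginine (the Q/R site). Sequences are from the GENCODE transcripts of GRCm38, 5′ to 3′ on the coding strand, with the codon in capitals.

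Gria1: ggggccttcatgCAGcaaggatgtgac

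Gria2: ggtgcctttatgCAGcaaggatgcgat

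Gria3: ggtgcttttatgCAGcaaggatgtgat

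Gria4: ggtgcctttatgCAAcaaggatgtgac

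Grik1: ggagctctcatgCAGcaaggatcggag

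Grik2: ggagctctcatgCAGcaaggttctgag

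Grik3: ggctccctgatgCAGcaaggatctgaa

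Grik4: ggaggcttcatgCAGcaaggctccact

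Grik5: ggtggcttcatgCAGcagggctcggag

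The genome thus encodes glutamine here in all 9 genes, by CAG in 8 of them and by CAA in Gria4. The stretch of 27 bases lies in an exon of Gria2 at chr3:80706899-80706925 on the minus strand, and it shares 25 bases with Gria3 and 20 with Grik1. In Grik1 the codon lies at chr16:87940542-87940544 on the minus strand, and the stretch crosses an exon boundary there, as it also does in Grik2 and Grik3. The deposited counts are sums over whole genes and hold no base calls, so the edited share was not analysed here.

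The labelled genotype was visible in every library. In CPM, counts scaled to a common library size, the male WT libraries had 151 and 161 of Bhlha9 and the female WT libraries 140 and 127. All 4 KO libraries lay between 0.156 and 0.470 CPM. Libraries held between 50919885 and 71956309 counts, so that 3 counts corresponded to at most 0.0587 CPM. Such limits cover counting error only, because PCR copies were not told apart. Of the C-LTMR markers, Th, the tyrosine hydroxylase that defines the class, ranged from 2975 to 5357 CPM, and the receptor tyrosine kinase gene Ret from 749 to 1403 CPM.

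Markers of other ganglion cells were present and uneven. The summed level of 9 peptidergic markers was 699.5 and 755 CPM in male WT, 1516 and 2121 CPM in male KO, 1218 and 1994 CPM in female WT, and 1565 and 507 CPM in female KO. The summed level of 9 myelinated afferent markers was 5920 CPM in male KO replicate 1 and 2017 CPM in male KO replicate 2, against 991 to 1394 CPM in the other 6 libraries. Nefh, a neurofilament gene, reached 1550 CPM in male KO replicate 1 against 61.3 to 296 CPM elsewhere, and Nefm 3763 CPM at most. That library also had the lowest sum of 11 C-LTMR markers, 4911 CPM against 6652 to 8962 CPM elsewhere. The sums of 7 nonpeptidergic and pruriceptor markers ran from 46.6 to 313 CPM, with the highest in male KO replicate 2. Glial and Schwann cell markers (9 genes) summed to 481 to 904 CPM, with male KO replicate 1 again highest. Vascular and fibroblast markers (7 genes) summed to 1.70 to 65.8 CPM and immune cell markers (6 genes) to 11.8 to 26.5 CPM. The peptide genes Calca and Calcb ranged from 5.94 to 909.9 CPM and from 272 to 457 CPM, and the myelin gene Mbp from 359 to 543 CPM. No marker was at 0 in all 8 libraries, and the macrophage gene Lyz2 was at 0 in 6. Without overlap between the genotypes, 7 of 11 C-LTMR markers (counting Bhlha9) were lower in male KO than in male WT, while 4 of 9 peptidergic, 5 of 8 tested myelinated afferent and 6 of 9 glial markers were higher, against 14.5% of all tested genes in each direction. In females 7 of 9 peptidergic markers were lower in KO in the same sense, against 15.1% of all tested genes. In sorted bulk cells a gene in fewer cells and less RNA per cell cannot be told apart.

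**Figure D1:**
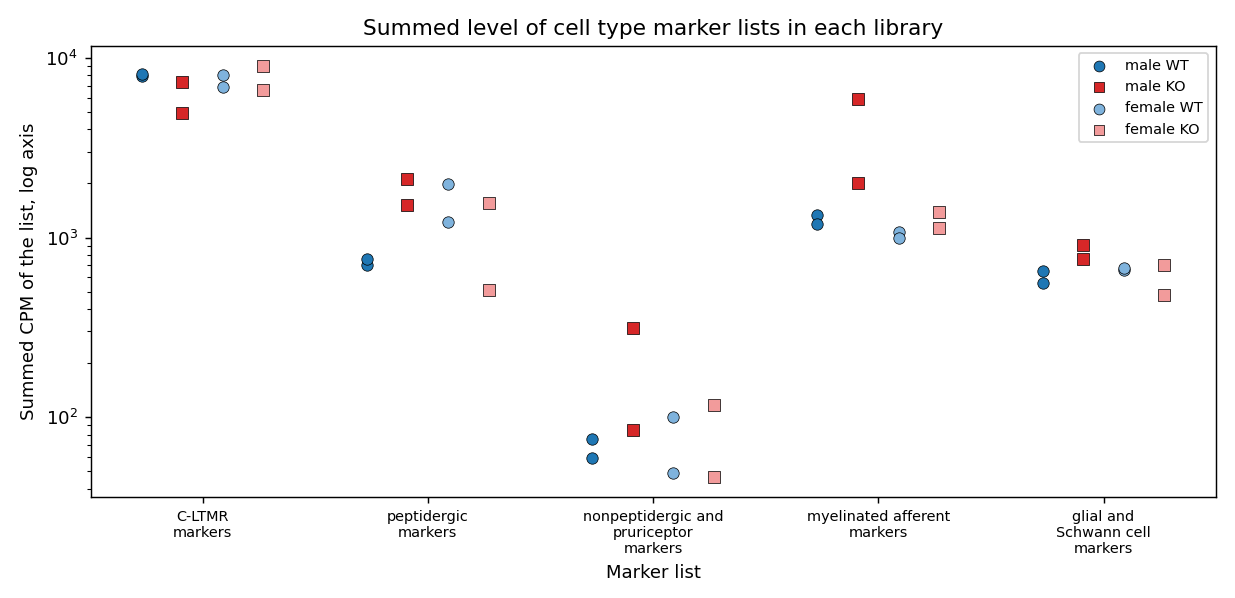
Summed CPM (log axis) of 5 marker lists in each of the 8 libraries, coloured by group. Male KO replicate 1 stands at 5920 CPM for myelinated afferent markers and at 4911 CPM for C-LTMR markers, and peptidergic markers range from 507 to 2121 CPM.

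Kainate subunit transcripts far exceeded AMPA subunit transcripts in these cells, and most of them came from Grik1. Levels of different genes are compared as RPKM, CPM divided by the exon length of the gene in kb. Summed over its 5 genes the kainate family stood at 60.2 to 97.5 RPKM, and summed over its 4 genes the AMPA family stood at 2.56 to 6.84 RPKM. The kainate sum was thus between 11.1 times (male KO replicate 1) and 29.3 times (female KO replicate 2) the AMPA sum, and higher in all 8 libraries. Kainate genes made up 91.7% to 96.7% of the RPKM of both families together.

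**Figure D2:**
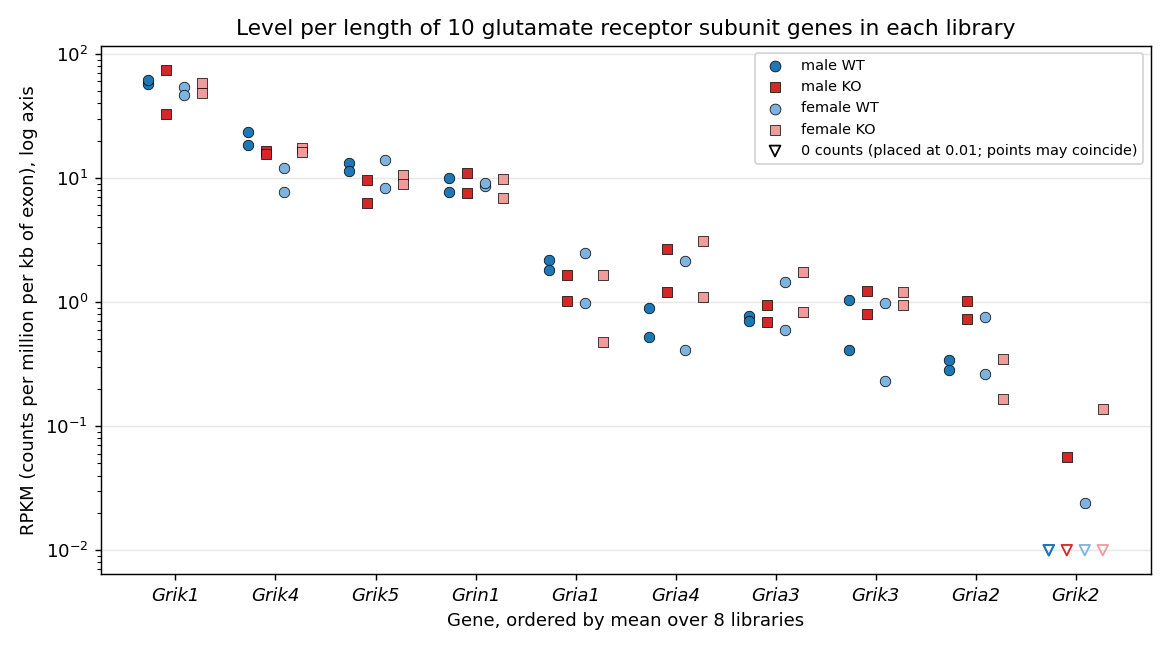
RPKM of each gene in each of the 8 libraries on a log axis, with genes ordered by their mean and libraries coloured by group. Open triangles mark libraries with 0 counts, placed at the bottom, where points coincide. Grik1 (33.0 to 74.2 RPKM) lies above every other gene, Grik4, Grik5 and Grin1 follow between 6.31 and 23.6 RPKM, the AMPA genes and Grik3 lie between 0.166 and 3.10 RPKM, and Grik2 has counts in 3 libraries.

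The order of mean levels over 8 libraries was Grik1, Grik4, Grik5, Grin1, Gria1, Gria4, Gria3, Grik3, Gria2 and Grik2. Grik1 averaged 54.2 ± 12.0 RPKM (SD, n = 8), and its lowest library lay above the highest of any other member. Grik4 averaged 15.9 ± 4.62 RPKM, Grik5 10.3 ± 2.55 RPKM and Grin1 8.84 ± 1.41 RPKM (SD, n = 8). The ranges of Grik4 and Grik5 overlapped, with Grik4 higher in 7 of 8 libraries, and those of Grik5 and Grin1 overlapped, with Grik5 higher in 4 of 8. Grin1 and the gene below it, Gria1, did not overlap. Gria1 (1.53 RPKM), Gria4 (1.51 RPKM), Gria3 (0.967 RPKM), Grik3 (0.857 RPKM) and Gria2 (0.489 RPKM) formed a run in which every pair of neighbours overlapped. Grik2 averaged 0.0273 RPKM and did not overlap with Gria2. With the length of the longest coding transcript in place of all exons, Grin1 moved from the fourth to the second place at 20.05 RPKM, behind Grik1 at 99.7 RPKM. Its place in either order is uncertain, because its counts may include reads of the overlapping gene Grin1os, as given below.

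Grik1 (ENSMUSG00000022935, chromosome 16, 87895900 to 88290265, minus strand of GRCm38) encodes GluK1. Its level was 382 and 417 CPM in male WT, 222 and 499 CPM in male KO, 364 and 315 CPM in female WT, and 390 and 327 CPM in female KO. The other 7 libraries lay between 315 and 499 CPM, below which lay male KO replicate 1 at 222 CPM. That library is the same that was lowest in C-LTMR markers and highest in myelinated afferent markers, and the part of this in its Grik1 level was not tested. The groups overlapped in both sexes. The log2 fold change of KO over WT was -0.15 (SE 0.35) in males and 0.08 (SE 0.35) in females, with an edgeR adjusted p of 1 in each. Without male KO replicate 1 the male value turned to 0.32.

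Grik4 (ENSMUSG00000032017, chromosome 9, 42518135 to 42944493, minus strand) encodes GluK4, a high-affinity partner subunit. Male WT libraries had 109 and 141 CPM, and male KO libraries 98.9 and 92.7 CPM. Female WT libraries had 46.1 and 71.7 CPM, and female KO libraries 104 and 96.5 CPM. Both KO libraries thus lay below both WT libraries in males and above them in females, and the female WT libraries were the lowest of all 8. The log2 fold change was -0.38 (SE 0.25) in males and 0.77 (SE 0.25) in females, neither past the threshold of 0.05 (edgeR adjusted p = 1 in each). The difference between the sexes in this effect was -1.15 (SE 0.35) and did not pass over all genes (edgeR adjusted p = 0.98, or 0.159 with DESeq2). The median log2 fold change of the 11 C-LTMR markers was -0.38 in males and 0.17 in females. Their part in the Grik4 level was not tested.

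Grik5 (ENSMUSG00000003378, chromosome 7, 25009849 to 25072346, minus strand) encodes GluK5, the other high-affinity subunit. It stood at 67.6 and 59.2 CPM in male WT, 50.2 and 32.6 CPM in male KO, 72.4 and 42.7 CPM in female WT, and 54.6 and 46.0 CPM in female KO. Male KO libraries lay below male WT libraries, and the female groups overlapped. KO over WT was -0.61 (SE 0.33) in males and -0.20 (SE 0.33) in females on the log2 scale (edgeR adjusted p = 1 in each). Male KO libraries were also the lower ones for Gria1 and Grik4. The same held for 7 of 11 C-LTMR markers (counting Bhlha9, the gene that KO lacks), against 14.5% of all tested genes. The part of the sorted cells' makeup in these values was not tested.

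Grik4 and Grik5 together made up 22.5% to 43.7% of the kainate RPKM of a library, and Grik1 54.9% to 76.3%. Grik1 stood at 1.26 to 3.39 times the sum of both, with the lowest and the highest ratio in the 2 male KO libraries. The remaining share came from Grik3, at most 1.59%, and Grik2, at most 0.184%.

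Grik3 (ENSMUSG00000001985, chromosome 4, 125490700 to 125714173, plus strand) encodes GluK3. It stood at 9.35 and 3.71 CPM in male WT, 7.24 and 11.1 CPM in male KO, 8.85 and 2.07 CPM in female WT, and 8.47 and 10.7 CPM in female KO. The groups overlapped in both sexes, with log2 fold changes of 0.49 (SE 0.76) and 0.81 (SE 0.76). The female value ran from 0.12 without female WT replicate 2 to 2.21 without female WT replicate 1. Grik2 (ENSMUSG00000056073, chromosome 10, 49094833 to 49788766, minus strand) encodes GluK2. It had 0 counts in 5 libraries, both male WT libraries among them, and 43 counts in male KO replicate 1, 18 in female WT replicate 1 and 130 in female KO replicate 2. In CPM these 3 libraries stood at 0.745, 0.317 and 1.83. No group had counts of Grik2 in both of its libraries, and no fold change is given for it.

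**Figure D3:**
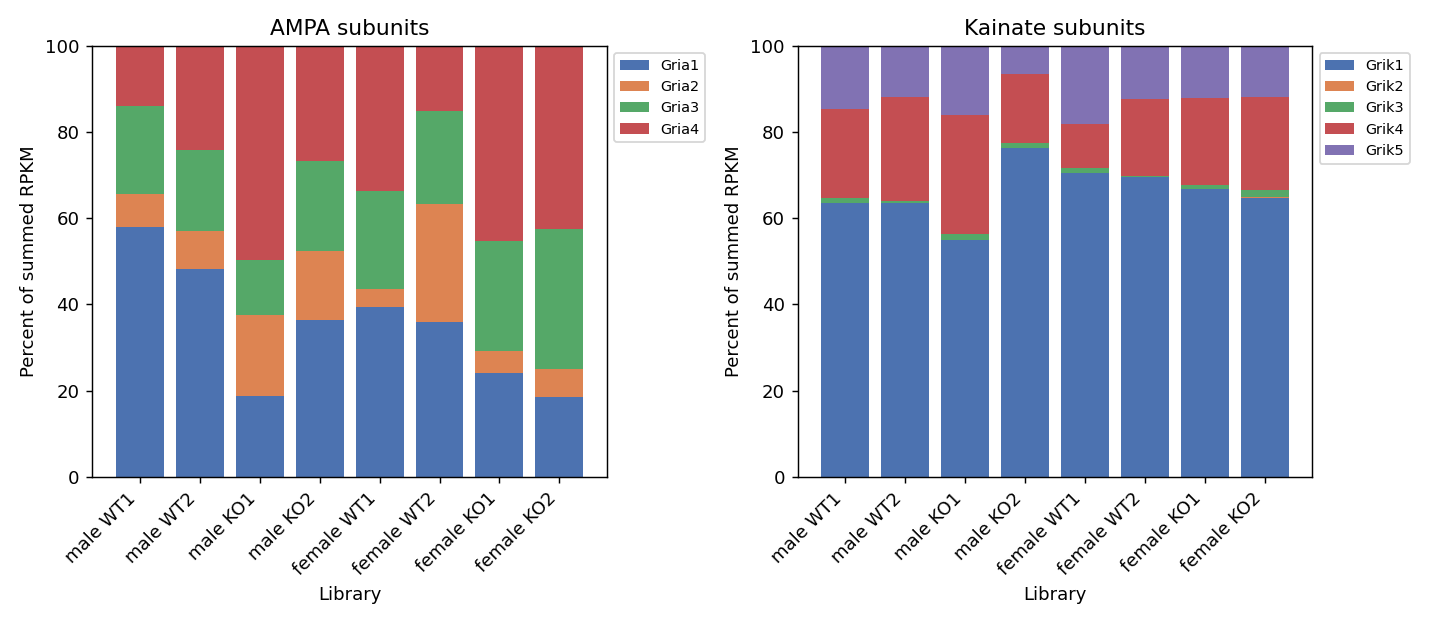
Share of each gene in the summed RPKM of the AMPA family (left) and the kainate family (right), in percent, for each of the 8 libraries. Grik1 takes 54.9% to 76.3% of the kainate sum in every library, whereas the AMPA sum is divided differently from library to library, with Gria2 between 4.19% and 27.5%.

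Gria2 was the lowest of the AMPA family by mean level per length, though not in every library. Its share of the AMPA sum was 27.5% in female WT replicate 2, above Gria3 (21.6%) and Gria4 (15.0%). In male KO replicate 1 it was 18.8%, above Gria3 (12.8%). Gria1 held the largest share in all 4 WT libraries, with 57.9% and 48.1% in males and 39.3% and 35.9% in females. Among the KO libraries it was largest in male KO replicate 2 (36.3%), and Gria4 was largest in the other 3 (42.6% to 49.6%). With the longest coding transcript as length, Gria1 was largest in both male WT libraries (48.7% and 40.5%) but in neither female WT library. Gria3 was then largest in female WT replicate 1 (33.0%), female KO replicate 2 (43.8%) and male KO replicate 2 (29.54%, with Gria1 at 29.44%). Gria2 was largest in female WT replicate 2 (29.7%, with Gria3 at 29.5%). Gria4 stayed largest in male KO replicate 1 (44.1%) and female KO replicate 1 (38.9%). Gria2 (ENSMUSG00000033981, chromosome 3, 80681450 to 80802835, minus strand) encodes GluA2, whose edited codon is shown above. It stood at 4.42 and 5.26 CPM in male WT, 15.8 and 11.4 CPM in male KO, 4.11 and 11.8 CPM in female WT, and 5.44 and 2.58 CPM in female KO. Both male KO libraries lay above both male WT libraries, and the female groups overlapped. The log2 fold change was 1.49 (SE 0.63) in males and -0.99 (SE 0.63) in females (edgeR adjusted p = 1 in each). The difference between the sexes was 2.48 (SE 0.89, edgeR adjusted p = 0.98, or 0.31 with DESeq2). Without female WT replicate 2 the female value was -0.036 and the difference 1.53, and without female KO replicate 1 they were -1.60 and 3.08. The 3 libraries above 10 CPM, both male KO libraries and female WT replicate 2, had peptidergic marker sums of 1516, 2121 and 1994 CPM, and the library with the lowest Gria2, female KO replicate 2, had the lowest sum, 507 CPM. Female KO replicate 1 had a sum of 1565 CPM with Gria2 at 5.44 CPM, and the part of these markers in the Gria2 level was not tested. The share of Gria2 in the AMPA sum was 11.8% ± 8.20 (SD, n = 8).

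Gria1 (ENSMUSG00000020524, chromosome 11, 57011387 to 57330244, plus strand) encodes GluA1. It stood at 13.1 and 10.9 CPM in male WT, 6.17 and 9.95 CPM in male KO, 15.0 and 5.97 CPM in female WT, and 9.92 and 2.86 CPM in female KO. Male KO libraries lay below male WT libraries, whereas the female libraries overlapped. Its log2 fold changes were -0.57 (SE 0.70) in males and -0.71 (SE 0.70) in females (edgeR adjusted p = 1 in each).

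Gria4 (ENSMUSG00000025892, chromosome 9, 4417896 to 4796234, minus strand) encodes GluA4. It stood at 3.30 and 5.69 CPM in male WT, 17.0 and 7.64 CPM in male KO, 13.4 and 2.61 CPM in female WT, and 19.5 and 6.88 CPM in female KO. Both male KO libraries lay above both male WT libraries and the female groups overlapped, with log2 fold changes of 1.45 (SE 0.90) and 0.72 (SE 0.88). Male KO replicate 1, the higher of the male KO libraries, was the library with 5920 CPM of myelinated afferent markers, and male KO replicate 2 had 2017 CPM. Female KO replicate 1, the highest of all in Gria4, had 1394 CPM of these markers. Female WT replicate 2, the lowest in Gria4, had 991 CPM, the lowest sum. What part these markers have in the Gria4 level was not tested.

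Gria3 (ENSMUSG00000001986, chromosome X, 41400854 to 41678601, plus strand) encodes GluA3 and is the X-linked member. It stood at 7.58 and 6.96 CPM in male WT, 6.84 and 9.35 CPM in male KO, 14.2 and 5.86 CPM in female WT, and 17.2 and 8.21 CPM in female KO. The groups overlapped in both sexes, with log2 fold changes of 0.16 (SE 0.56) and 0.34 (SE 0.56).

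**Figure D4:**
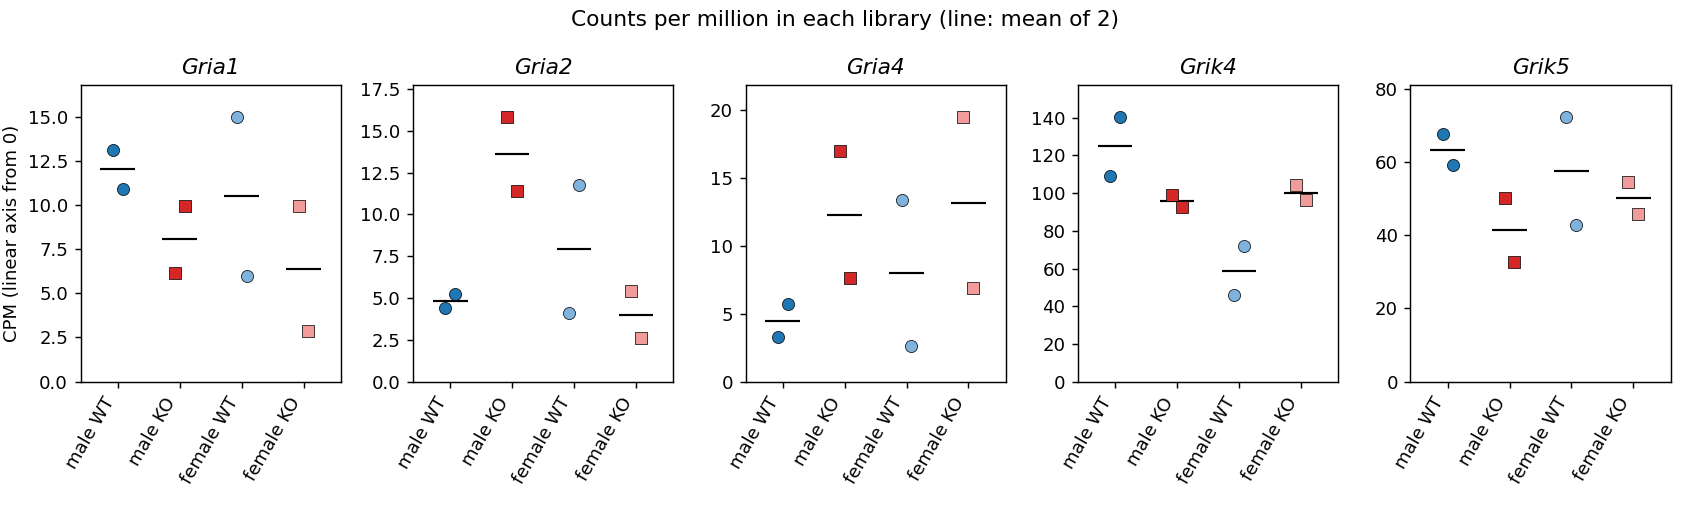
CPM of 5 genes in each library (linear axes from 0), by group, with the mean of 2 libraries as a line. In males the KO libraries lie below WT for Gria1, Grik4 and Grik5 and above WT for Gria2 and Gria4. In females only Grik4 separates, with KO (104 and 96.5 CPM) above WT (46.1 and 71.7 CPM).

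Grin1 (ENSMUSG00000026959, chromosome 2, 25291181 to 25319187, minus strand) encodes GluN1 and varied least among the members. It stood at 74.7 and 96.4 CPM in male WT, 107 and 73.2 CPM in male KO, 83.8 and 88.6 CPM in female WT, and 66.7 and 95.9 CPM in female KO. The highest library was 1.598 times the lowest, and the groups overlapped in both sexes. On the log2 scale KO over WT was 0.07 (SE 0.27) in males and -0.08 (SE 0.27) in females. Of the exon bases of Grin1, 13.5% are also exon of Grin1os, a gene on the opposite strand, and counting ignored strand and entered such reads in both genes. Grin1os had between 46.9% and 57.0% as many counts as Grin1. If all of its counts were also counted in Grin1, 31.7 to 51.2 CPM would remain for the latter. The other members shared at most 0.99% of their exon bases with another gene.

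The partners of GluN1 were uneven. Of the GluN2 subunit genes, Grin2b and Grin2c had 0 counts in all 8 libraries, which at these depths allows at most 0.0587 CPM in any of them. Grin2a had 6 counts in male WT replicate 1 and 0 elsewhere, and Grin2d ranged from 0 to 2.43 CPM. The GluN3 subunit genes were higher: Grin3a ranged from 11.4 to 39.3 CPM and Grin3b from 4.92 to 15.5 CPM. Per length Grin3b averaged 2.93 RPKM, Grin3a 1.80 RPKM and Grin2d 0.153 RPKM, against 8.84 RPKM for Grin1. With the longest coding transcript as length Grin3a (2.951 RPKM) and Grin3b (2.940 RPKM) stood about level, against 20.05 RPKM for Grin1. The Grin1 values may include reads of Grin1os, as given above. Grid1, a delta receptor gene, had 0 counts in both male WT libraries and 50 and 89 counts in the male KO libraries. In females it had 28 and 8 counts in WT and 0 and 11 in KO. Of the 8 NMDA and delta genes beside Grin1, 5 were tested. In either direction 0 passed in either sex, against 0.00454% of all tested genes in each.

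Across the members, KO was then compared with WT gene by gene. In males 0 of the 10 members passed a Benjamini-Hochberg adjusted edgeR p of 0.05, against 0.00454% of all 22013 genes (1 gene, Bhlha9). In females 0 of 10 passed, again against 0.00454% of all genes. Across both sexes 0 of 10 passed, against 0.00454%, and for the difference between the sexes 0 of 10 passed, against 0%. At an unadjusted edgeR p below 0.05 there were 0 members in males (3.5% of all genes), 1 in females (3.81%), 2 for the difference (4.73%) and 0 across both sexes (3.56%). The female member was Grik4, and those of the difference were Grik4 and Gria2. DESeq2 called 0 of the 10 members in males (0.745% of all genes), in females (0.75%), for the difference (0.986%) and across both sexes (0.236%). The authors' deposited tables of genes past 5% list 150 genes for males and 13 for females, with 0 members in either.

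**Figure D5:**
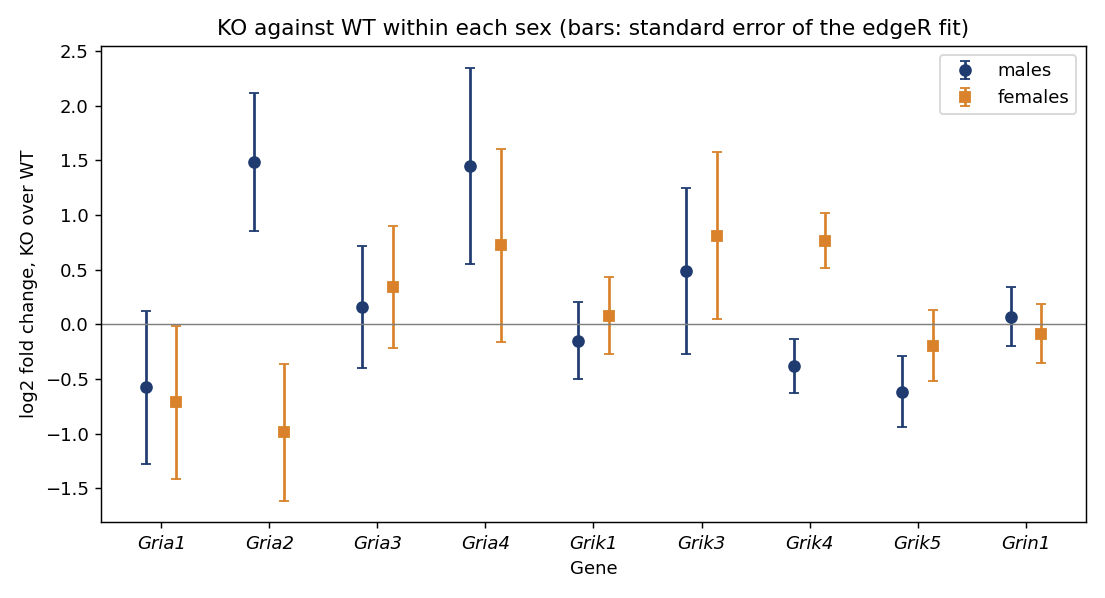
Log2 fold change of KO over WT in males (circles) and females (squares) for 9 genes, with bars of 1 standard error of the edgeR fit. Grik2 is left out because its male WT libraries had 0 counts. Values run from -0.61 (Grik5) to 1.49 (Gria2) in males and from -0.99 (Gria2) to 0.81 (Grik3) in females.

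Directions within the set were mixed. Leaving out Grik2, 5 of 9 members had positive and 4 negative fold changes in males, with a median of 0.07 against 0.02 over all tested genes. With Grik2 set at its lower bound against 3 counts over the male WT group, the median of the 10 was 0.11. In females the 9 again divided into 5 positive and 4 negative, with a median of 0.08 against 0 over all genes. In males the KO and WT libraries did not overlap for 5 of the 10 members, 2 higher and 3 lower, against 29.1% of all tested genes (14.5% in each direction). In females this held for 1 member, against 29.3% of all tested genes (14.2% higher and 15.1% lower). Over both sexes no member had all 4 KO libraries on the same side of all 4 WT libraries, against 1.83% of all tested genes (0.936% higher and 0.895% lower). The shares in either sex rest on 2 libraries a group.

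Proteins that accompany these receptors were taken from lists of the pathway. Of 17 genes for AMPA receptor auxiliary and assembly proteins 16 were tested. In either direction 0 of them passed in males or females, against 0.00454% of all tested genes in each sex. The median log2 fold change of this list was 0.57 in males and -0.28 in females, against 0.02 and 0 over all tested genes. These medians include genes with 0 counts in some libraries, such as Cnih3 (0 and 36 counts in male WT, 0 and 280 in male KO). The 3 genes highest per length, Olfm1, Cnih2 and Cpt1c, stood at -0.40, 0.42 and -0.06 in males and at 0.15, -0.51 and -0.11 in females. In males and females the medians were 1.73 and -2.37 for peptidergic and 1.17 and -0.42 for glial markers. They were 3.38 and -0.34 for nonpeptidergic and pruriceptor markers, and 4.84 and -7.41 for vascular and fibroblast markers. Myelinated afferent markers had 2.48 and 0.06, immune markers 0.25 and 0.10, and C-LTMR markers -0.38 and 0.17. The part of any of these markers in the list was not tested. The highest per length was Olfm1, which encodes the secreted noelin-1, at 373 RPKM on average and 976 to 1709 CPM. It was followed by Cnih2, a cornichon that escorts AMPA receptors, at 22.4 RPKM, and Cpt1c, a brain carnitine palmitoyltransferase isoform of AMPA receptor complexes, at 17.5 RPKM. With the longest coding transcript as length Cpt1c, at 35.1 RPKM, stood above Cnih2, at 22.9 RPKM. Gsg1l, an AMPA auxiliary subunit, had 31 and 344 counts in female WT and 0 counts in both female KO libraries. In males it had 35 and 110 counts in WT and 0 and 87 in KO, and it passed in neither sex.

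The kainate receptor auxiliary subunits Neto1 and Neto2 averaged 1.74 and 0.869 RPKM. Neto1 stood at 10.6 and 8.86 CPM in male WT, 22.0 and 19.5 CPM in male KO, 13.6 and 15.0 CPM in female WT, and 16.8 and 9.73 CPM in female KO. Both male KO libraries were the highest of the 8, while the female groups overlapped. In males KO over WT was 1.09 on the log2 scale (SE 0.35) and did not pass (edgeR adjusted p = 1). The peptidergic marker sum was likewise higher in both male KO libraries (1516 and 2121 CPM) than in male WT (699.5 and 755 CPM). So were the sums of myelinated afferent markers (5920 and 2017 against 1343 and 1185 CPM) and glial markers (904 and 756 against 651 and 561 CPM). The C-LTMR marker sum was lower (4911 and 7317 against 7961 and 8152 CPM). The part of these markers in the Neto1 level was not tested. Of the 2 genes 0 passed in either sex, against 0.00454% of all tested genes in each.

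All 13 scaffold and trafficking genes were tested. In either direction 0 passed in either sex, against 0.00454% of all tested genes in each. The median log2 fold change of the list was -0.17 in males and 0.08 in females. Nptx2, a pentraxin that clusters AMPA receptors at synapses, averaged 116 RPKM, Nsf, the ATPase of vesicle fusion that also binds GluA2, 61.5 RPKM, and Gripap1, which binds the scaffold GRIP1, 37.2 RPKM. With the longest coding transcript as length Nsf, at 136 RPKM, stood above Nptx2. Pick1, a PDZ protein that binds GluA2, stood at 49.9 and 79.5 CPM in male WT, 47.6 and 52.3 CPM in male KO, 42.1 and 38.8 CPM in female WT, and 56.2 and 85.9 CPM in female KO. Its KO libraries lay above WT in females (log2 fold change 0.81, SE 0.30, edgeR adjusted p = 1) and the male groups overlapped.

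Adarb1 encodes ADAR2, the deaminase that edits the Q/R codon. It stood at 8.59 and 7.98 CPM in male WT, 18.5 and 13.5 CPM in male KO, 21.5 and 13.4 CPM in female WT, and 8.81 and 10.5 CPM in female KO. KO libraries lay above WT libraries in males and below them in females, with log2 fold changes of 0.95 (SE 0.36) and -0.85 (SE 0.36), and neither passed (edgeR adjusted p = 1 in each). Above WT in males (14.5% of all tested genes) also lay 4 of 9 peptidergic, 6 of 9 glial and 5 of 8 tested myelinated afferent markers. The same held for 5 of 7 vascular and fibroblast markers and 0 of 11 C-LTMR markers. Below WT in females (15.1%) lay 7 of 9 peptidergic, 2 of 9 glial and 1 of 8 tested myelinated afferent markers. Of the vascular and fibroblast markers 1 of 7 did so, and of the C-LTMR markers 2 of 11. The part of these markers in the Adarb1 level was not tested. Adar, which encodes ADAR1, ranged from 31.2 to 54.1 CPM, and Adarb2 had 0 counts in all 8 libraries. Of these 3 genes 2 were tested and 0 passed in either sex, against 0.00454% of all tested genes in each.

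Genes outside the set with the most similar pattern were found by Pearson's r of log2 CPM over the 8 libraries, among 11848 genes with a mean of at least 5 CPM. These are given as descriptions, since the best of so many genes over 8 points is high for any pattern, and the libraries share their depth and cell makeup. The closest genes were Gm12470, Angel1 and Bmper for Grik1 (r from 0.962 to 0.967), Nacc1, Afg3l1 and Zfp239 for Grik4 (0.934 to 0.977), and Sft2d3, Sobp and Gm11626 for Grik5 (0.914 to 0.962). For Gria2 they were Shroom3, Mrpl49 and Clmp (0.930 to 0.956). For Gria1 they were Cog2, Nup188 and Pde7a (0.953 to 0.968), for Gria3 Ano3, Cpne3 and Tro (0.936 to 0.954), and for Gria4 Hectd4, 4732487G21Rik and Rassf7 (0.955 to 0.960). For Grik3 they were Eif3a, Slc7a14 and Srp72 (0.939 to 0.959), and for Grik2, whose counts lie in 3 libraries, 1700025G04Rik, Hipk4 and AI837181 (0.910 to 0.920). For Grin1 they were Spns2, Osgin1 and Grin1os (0.933 to 0.977), the last of which shares exon bases with it.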

How the data were processed

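C-LTMR RNA of 8 libraries was measured as full-length cDNA (SMART-Seq v4, 13 PCR cycles, then Nextera XT, 12 cycles), per the labels' protocols. The deposited table holds read counts per gene, summed by featureCounts 1.6.1 on Ensembl 97 exons (GRCm38), per the file headers, with no strand option and with overlapping genes each given the read. It also gives exon length. The submitters' processing notes name Subread 1.6.4 and DESeq2 1.14.1, and no aligner is named in them. The authors' deposited tables of genes past 5% hold, per the file headers, log2 fold changes, a mean normalized signal, a test score and p-values, and were only searched for the members.

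Of 55573 identifiers 55480 matched GENCODE M21 (GRCm38). Counts were scaled with TMM over the 22013 genes kept by filterByExpr and tested with edgeR 4.0.16 (R 4.3.3), quasi-likelihood, robust, two-sided: 4 groups in 1 fit, and an additive fit of sex and genotype across both sexes. SEs are the log2 fold change divided by the root of F. Adjustment was over all tested genes at 0.05. log2 CPM used a prior count of 2. Scripts were tested on simulated counts. The members, gene lists, marker lists and tests were chosen with earlier results of these data known. Named beyond the members were the 3 genes of each pathway list highest in RPKM, those not overlapping between genotypes in a sex at an unadjusted p below 0.05, the 2 highest of each marker list, and the 3 genes most alike in pattern. Grin2a, Grin2b and Grin2c were named after their values were seen, and markers of low level are given by list only. Grik2 fold changes were left out after its 0 counts were seen. Alternatives were DESeq2 1.42.0, other size factors, no filter, a replicate block, each sex alone, each library left out, and another gene length.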

Additional observations from a re-analysis of the deposited data

Results flagged for a closer look

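Grik4 was singled out because both KO libraries lay below both WT libraries in males and above them in females. The pattern was not particular to Grik4. It also held for Nptx2 and for 2 of 11 C-LTMR markers, Cacna1h and Fam19a4. The share of all tested genes with this pattern was not counted. For Grik4 the difference between the sexes in the effect of genotype was -1.15 on the log2 scale (SE 0.35). The test of this difference did not pass (edgeR adjusted p = 0.98). The difference was -0.99 for Cacna1h, -0.78 for Fam19a4 and -1.14 for Nptx2. The female WT libraries of Grik4, at 46.1 and 71.7 CPM, lay below the other 6, which ran from 92.7 to 141 CPM. Groups of 2 libraries are too small for a search for single outlying libraries.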

How the results depend on the processing

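No member passed the threshold in any comparison under any setting run. The number of genes past it was 164 in males, 165 in females, 217 for the difference between the sexes and 52 across both sexes with DESeq2, against 1, 1, 0 and 1 with edgeR, and the cause was not tested. With a replicate block it was 0 in males and 0 in females (675 and 714 at an unadjusted p below 0.05), and with each sex fitted alone 0 in females. Same-numbered libraries did not deviate together (r = -0.01 in males and 0.00147 in females), so the numbers give no pairing. With 1 library left out, the number ranged from 0 to 1 in males and from 0 to 1 in females, with a lone library assumed to vary like the other groups. With the longest coding transcript as length, 5 of 10 places in the RPKM order moved. Grin1 across both sexes turned from -0.01 to 0.00318 with DESeq2 and 0.00316 with RLE factors. With 1 library left out, log2 fold changes that took either sign ranged as follows. In males Gria3 ran from -0.11 to 0.37, Grik1 from -0.87 to 0.32, Grik3 from -0.038 to 1.31 and Grin1 from -0.22 to 0.30. In females Gria1 ran from -1.85 to 0.10, Gria3 from -0.27 to 1.118, Gria4 from -0.20 to 2.34, Grik1 from -0.036 to 0.20, Grik5 from -0.53 to 0.23 and Grin1 from -0.37 to 0.17. For the difference Gria1 ran from -0.67 to 1.27, Gria3 from -0.96 to 0.42, Gria4 from -0.88 to 1.64, Grik1 from -0.95 to 0.24, Grik3 from -1.72 to 0.49 and Grin1 from -0.15 to 0.44. Across both sexes Gria2 ran from -0.16 to 0.85, Gria3 from -0.016 to 0.52, Grik1 from -0.28 to 0.18, Grik4 from -0.050 to 0.37 and Grin1 from -0.13 to 0.11. Grik4 kept its sign with each library left out in males (-0.55 to -0.20), in females (0.48 to 1.1196) and for the difference (-1.502 to -0.87). Groups of 2 libraries and a common coefficient of variation of 76.6% limit what these tests could detect.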

Other observations

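Set against genes of like level (0.5 to 2 times its mean CPM), Grik4 was among the more variable and Grin1 among the steadier over the 8 libraries. The SD of log2 CPM of Grik4 was 0.48, and 6.27% of 3526 genes of like level had a larger one. For Grin1 it was 0.23, and 68.4% of 3713 such genes had a larger one. Grik1 differed between its replicates by 1.17 on the log2 scale in male KO and by 0.13 to 0.26 in the other groups.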
